A study of Mus musculus with 6 samples.

Results

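Lin28a, Lin28b, Dis3l2, Cnot7, Cnot8 and Pan3 act where microRNA control and mRNA tail shortening meet, and their transcripts were measured in single mouse blastocysts. The 6 genes were chosen by symbol and found by Ensembl identifier through GENCODE M21, all 6 among the 12149 genes of the table. The embryos came from C57BL/6 zygotes injected with small RNAs of mouse sperm at 2 ng/µl and were taken at embryonic day 3.5, about 96 h later. The control group (Ctl, 3 embryos) received small RNAs of normal males, and the other group (Dep, 3 embryos) those of males made depressive by stress. Every embryo was thus injected, and no uninjected embryo entered the comparison. Values after ± are SD over the 3 embryos of a group unless marked SE. The labels do not say which males, litters or injection days the embryos share, so p-values measure the spread between these embryos.

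LIN28 proteins bind precursors of the let-7 microRNA family and hold back their maturation, in part by recruiting terminal uridylyltransferases that add a tail of U to the precursor. DIS3L2 is the exonuclease that degrades RNA carrying such U tails. Shortening of the poly(A) tail starts the decay of most mRNAs: the PAN2-PAN3 complex is known for trimming long tails and the CCR4-NOT complex for removing the rest. In mouse embryos, LIN28A is best known from pluripotent cells, and deadenylation from the clearance of maternal mRNA.

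The sequences that join LIN28 to let-7 are shown first, from RefSeq on GRCm38.p6, because LIN28 proteins, whose transcripts are described next, read them. Mature microRNAs were not analysed here. Capitals mark the seed, bases 2 to 8, in the mature strand, and the letters GGAG, the known recognition motif of the LIN28 zinc knuckles, in the hairpin of let-7g (chr9:106178840-106178927, plus strand). All 8 mature let-7 5p strands found by name had the same seed.
let-7a-5p: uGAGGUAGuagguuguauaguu
let-7g-5p: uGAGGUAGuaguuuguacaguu
let-7g hairpin: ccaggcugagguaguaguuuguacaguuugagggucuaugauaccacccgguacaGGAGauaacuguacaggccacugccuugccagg
GGAG lay between the arms in 9 of 11 let-7 hairpins, on the transcribed strand. The 4 letters occurred somewhere in 9 of the 11 let-7 hairpins and in 44.5% of all 1005 mouse hairpins, so a match is a description and not a site.

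The reverse complement of the let-7 seed followed by A, CTACCTCA, was sought on the transcribed strand of the longest annotated 3′ UTR of each gene. It was present in 3.58% of 11096 such UTRs. Lin28a held 2 copies and Lin28b 1, whereas the UTRs of Dis3l2, Cnot7, Cnot8 and Pan3 held none. Among described let-7 targets, Hmga2, which encodes a chromatin protein, held 1, Igf2bp1 3 and Trim71 4. The 22-base windows, read 5′ to 3′ with the match in capitals, lie on the minus strand at chr4:134005189-134005210, chr4:134004551-134004572, chr10:45381022-45381043 and chr10:120364224-120364245 (GRCm38, GENCODE M21).
Lin28a, first copy: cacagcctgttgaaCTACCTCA
Lin28a, second copy: agatcgccacaaacCTACCTCA
Lin28b: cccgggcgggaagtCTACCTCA
Hmga2: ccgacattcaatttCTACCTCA

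Values are normalized counts, which are whole reads divided by a size factor per library. Reads in the listed genes numbered from 16543356 to 21548220 per library. The lowest mean of a listed gene over the 6 libraries was 14.2 normalized counts. A gene called not measured or not listed may thus have had few reads, and shares of all genes cover the 12149 listed ones. Dep 1 stood apart before any comparison: 779 genes, or 6.41%, had 0 or 1 read there, against 8 to 144 in the other 5 libraries. Its epiblast markers were low as well, with a mean log2 level of 6.88 over 8 measured markers against 8.73 to 9.40 elsewhere, and Fgf4 at 0. The summed epiblast level ran from 7099 to 10430.6 in Ctl and from 5908 to 12896 for Dep embryos. Of 8 primitive endoderm markers 7 were measured, with Gata4 at 0 in Ctl 3 and Dep 1 and Sox17 and Sox7 at 0 in Dep 1. Their mean log2 level was 5.76 in Dep 1 and 6.31 in Ctl 3, against 8.87 to 10.1 in the other embryos. Their summed level was 19896 to 23174 for Ctl embryos and 19657 to 25509.9 for Dep embryos, highest in Dep 1. The 8 trophectoderm markers, all measured, summed to 48663 to 73308 for Ctl embryos and 42117 to 103407 for Dep embryos, highest in Dep 1. None of 8 cumulus and granulosa markers was listed, nor were 8 of 11 oocyte markers. The 3 oocyte markers measured summed to 1264 to 2659 for Ctl embryos and 839 to 3781 for Dep embryos, highest in Dep 1. Their mean log2 level was lowest in Dep 1, at 5.15, with Zp3 at 0 there. Of 4 sperm markers 1 was measured, at 4.17 to 24.9 for Ctl embryos and 19.9 to 48.6 for Dep embryos. Fewer cells of a type and less RNA per cell cannot be told apart in whole embryos.

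Dep was set against Ctl to ask whether what stress changes in sperm small RNAs alters these transcripts in the embryo. No member passed an adjusted p of 0.05 (limma, adjusted p = 0.9997 for each of the 6), and 0% of all genes did. In the authors' deposited table the adjusted p was 0.9999 for each member. Of the 6 members, 5 had a lower mean log2 level in Dep and Cnot8 a higher one, while 48.2% of all genes were higher. The median log2 fold of the members was -0.47, against -0.02 over all genes. Without Dep 1 the log2 fold was 0.81 for Dis3l2 and 0.00 for Lin28a, and the other members kept their signs. The median over all genes was then 0.02. The 3 Ctl and 3 Dep values overlapped for every member, whereas 6.90% of all genes had groups that did not overlap, 3.09% with Dep higher and 3.80% with Dep lower. At an unadjusted limma threshold of 0.05, 0 of 6 members passed, against 1.85% of all genes, 0.831% with Dep higher and 1.02% with Dep lower. Without Dep 3, Cnot8 and Pan3 passed that unadjusted threshold, as did 4.74% of all genes, and no member passed the adjusted one in any setting run. By same-numbered pairs, a comparison added after the values were seen, Lin28a, Lin28b and Cnot7 were lower in Dep in all 3 pairs, as were 12.6% of all genes. Cnot8 was higher in all 3, as were 12.6% of all genes, and Dis3l2 and Pan3 were mixed.

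**Figure D1:**
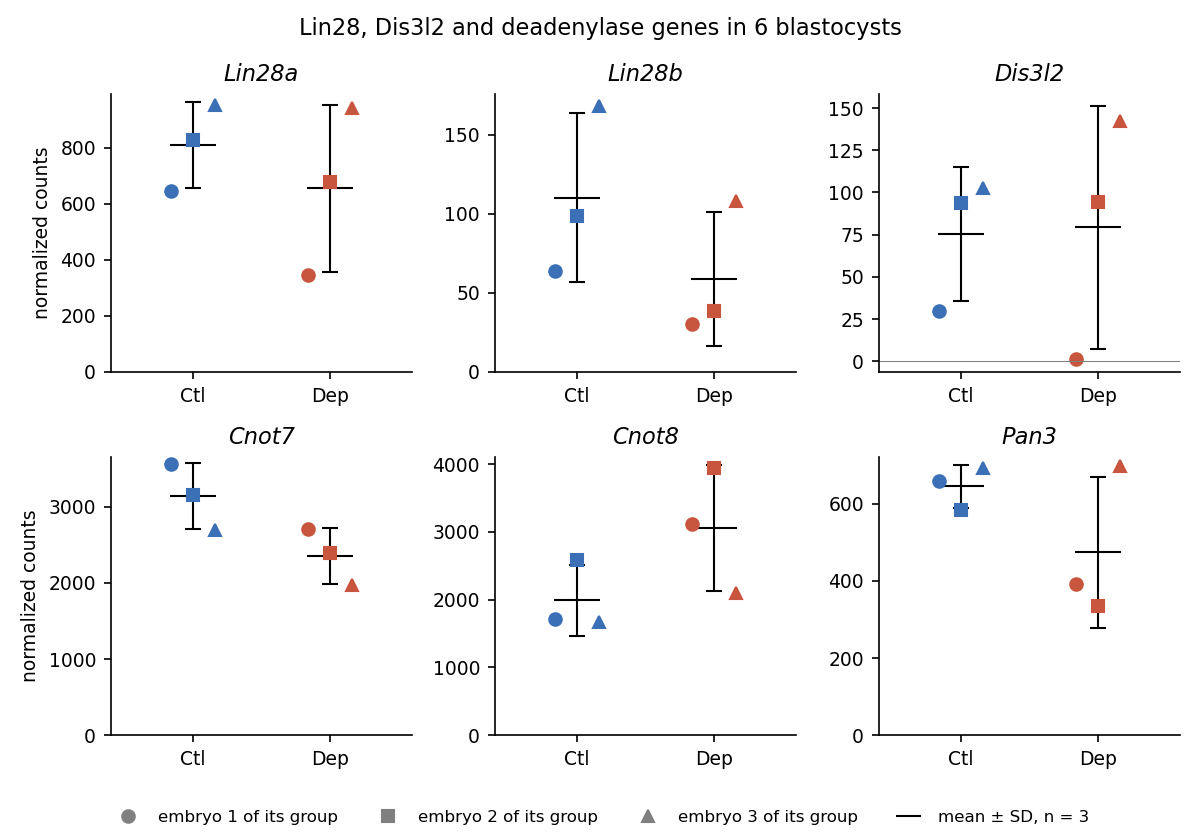
Normalized counts (vertical axes, linear, each on its own scale and reaching 0) of the 6 genes in each Ctl and Dep embryo, with the mean and SD of 3 embryos as bars. Ctl and Dep overlap in every panel, and Dis3l2 is near 0 in Dep 1 alone.

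Lin28a, the family member of pluripotent cells (ENSMUSG00000050966, chr4:134003330-134018841, protein-coding), had 646, 827 and 952 normalized counts across Ctl 1, 2 and 3. It had 346, 677 and 941 in Dep 1, 2 and 3. Dep 1 lay below all other embryos, and Dep 2 and Dep 3 lay within the Ctl range. The log2 fold of Dep against Ctl was -0.40 ± 0.40 (SE), with a 95% interval from -1.29 to 0.49. Without Dep 1 the log2 fold was 0.00. Its exons overlap those of Gm13061 on the opposite strand over 234 of 3996 bases, where reads cannot be assigned without strand. Epiblast markers were low in Dep 1 too, as given above, and their part in the Lin28a value was not tested.

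Lin28b, the paralog known for the same block of let-7 maturation (ENSMUSG00000063804, chr10:45376620-45486395), was scarcer. It had 63.9, 98.5 and 169 normalized counts across Ctl 1, 2 and 3, and 30.4, 38.7 and 108 in Dep 1, 2 and 3. Dep 1 and Dep 2 lay below the Ctl embryos, while Dep 3 was second only to Ctl 3. The mean was 110 ± 53.3 for Ctl embryos and 59.0 ± 42.5 for Dep embryos (n = 3 each), or 1.87-fold higher in Ctl. The log2 fold was -1.005 ± 0.78 (SE), with a 95% interval from -2.72 to 0.71. It rests on 25 to 191 reads per library. With an embryo left out it ran from -1.55, without Dep 3, to -0.65, without Ctl 3 or Dep 1.

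Lin28a exceeded Lin28b in every embryo. The ratio of their counts was 10.1, 8.39 and 5.65 in Ctl 1, 2 and 3 and 11.4, 17.5 and 8.73 across Dep 1, 2 and 3. The mean log2 ratio was 2.95 ± 0.42 for Ctl embryos and 3.56 ± 0.50 for Dep embryos (n = 3 each, exact two-sided permutation p = 0.2). These groups overlap, and 3 against 3 embryos cannot give a p below 0.1. The ratio was higher in Dep in all 3 same-numbered pairs, by 0.15, 1.04 and 0.62 on the log2 scale, and the difference ran from 0.34 to 0.83 with an embryo left out. No stretch of 50 bases in Lin28a or Lin28b transcripts occurred in another annotated gene, so exact sharing of reads at that length was not found.

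Of 20 transcripts listed as described let-7 targets, 19 were measured, and 0 passed the threshold. Mean log2 levels were higher for 6 and lower for 13 of them in the Dep group, and the median log2 fold was -0.11 against -0.02 over all genes. Hmga2 had 7006 ± 2062 normalized counts for Ctl embryos and 5344 ± 1385 for Dep embryos (n = 3 each), with overlapping groups. Igf2bp1, Igf2bp2 and Igf2bp3, which bind and stabilize mRNA, had log2 folds of 0.28, -0.16 and -0.45. Trim71, a ubiquitin ligase that is itself a classic let-7 target, had 217 ± 64.0 and 229 ± 162. Myc, the growth-promoting transcription factor, had 345 ± 119 and 207 ± 105.

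Arid3a, a transcription factor gene, was higher in all 3 Dep embryos, at 126, 182 and 187 normalized counts against 52.1, 81.8 and 118. Its groups did not overlap, as for 6.90% of all genes. Cdk6, a kinase that drives entry into the cell cycle, had 227, 171 and 152 for Ctl embryos and 883, 210 and 277 for Dep embryos, so that Dep 1 carried most of its mean difference. Arid3a and Cdk6 did not pass the test (limma, adjusted p = 0.9997 for each).

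Dis3l2, the exonuclease of U-tailed RNA (ENSMUSG00000053333, chr1:86703808-87050095), had 29.6, 93.5 and 102 normalized counts across Ctl 1, 2 and 3. It had 1.21, 94.3 and 142 in Dep 1, 2 and 3. Dep 2 lay within the Ctl range and Dep 3 above it, and Dep 1 held 1 read where the other libraries held 25 to 169. An exact Poisson 95% interval for that read, covering counting error only, runs from 0.0307 to 6.76 normalized counts. The group means were 75.2 ± 39.7 for Ctl embryos and 79.3 ± 71.8 for Dep embryos (n = 3 each).

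Dis3l2 thus had a slightly higher mean count and a lower mean log2 level among Dep embryos. On the log2 scale the fold was -1.10 ± 1.47 (SE), with a 95% interval from -4.37 to 2.17. Without Dep 1 it turned to 0.81, and edgeR on the whole reads, which compares means, gave 0.08. The 779 genes at 0 or 1 read in Dep 1 include Dis3l2, and whether the transcript was absent from that embryo or lost from its library was not tested.

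**Figure D2:**
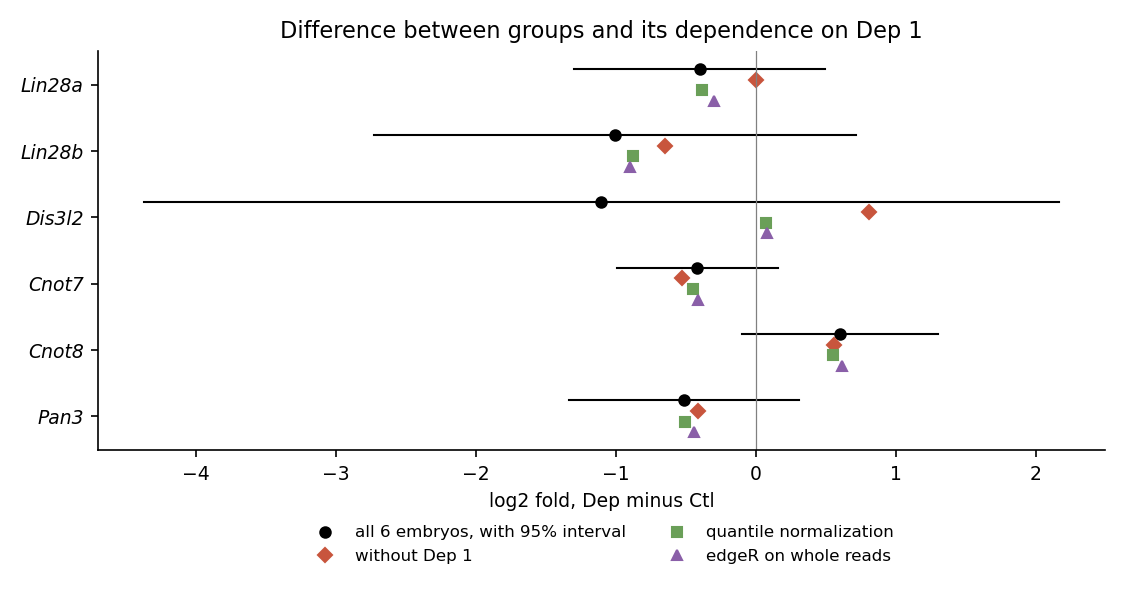
Log2 fold of Dep against Ctl (horizontal axis) for each gene from all 6 embryos with its 95% interval (circle and line), without Dep 1 (diamond), after quantile normalization (square) and by edgeR on whole reads (triangle). Every interval includes 0. Dis3l2 runs from -1.10 to 0.81 between these settings, and Lin28a reaches 0.00 without Dep 1.

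Tut4 had 1182 ± 338 normalized counts for Ctl embryos and 1115 ± 284 for Dep embryos, and Tut7 704 ± 203 and 690 ± 84.8, with overlapping groups for both. These are the uridylyltransferases that LIN28 is known to engage on let-7 precursors. In the wider list of uridylation and RNA exosome genes, 14 of 19 measured members were higher in Dep and 5 lower. The median log2 fold was 0.26 against -0.02 over all genes, and without Dep 1 it was 0.33 against 0.02. Of the exosome core subunits, Exosc2 had 1075 ± 209 and 1485 ± 314, and Exosc3 1081 ± 247 and 1578 ± 491. Exosc10, a nuclear exonuclease of the complex, had 574 ± 134 and 759 ± 153.

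The mean log2 level of that list was 8.99, 9.27 and 8.98 in Ctl 1, 2 and 3 and 9.31, 9.38 and 9.33 across Dep 1, 2 and 3. Dep 1 lay beside the other Dep embryos here, although it held the least Dis3l2. The summed level of the list overlapped between the groups, at 16537 to 18953 for Ctl embryos and 17419 to 22756 for Dep embryos. Dis3l, the cytoplasmic exosome nuclease and a relative of Dis3l2, had 10.7, 48.4 and 54.7 normalized counts for Ctl embryos and 140, 80.4 and 63.2 for Dep embryos. It was the only measured gene of the 19 whose groups did not overlap, or 5.26% beside the 6.90% of all genes. Dis3, the nuclear counterpart, had 151 ± 82.9 and 149 ± 75.7. None of the 19 passed the test (limma, lowest adjusted p = 0.9997).

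Cnot7, a catalytic deadenylase of CCR4-NOT (ENSMUSG00000031601, chr8:40492540-40515847), had 3565, 3156 and 2693 normalized counts across Ctl 1, 2 and 3. It had 2706, 2388 and 1966 in Dep 1, 2 and 3. Only Dep 1 exceeded the lowest Ctl embryo, and by less than the spread within either group. The mean was 3138 ± 436 for Ctl embryos and 2353 ± 371 for Dep embryos (n = 3 each), or 1.33-fold higher in Ctl. The log2 fold was -0.42 ± 0.26 (SE), with a 95% interval from -0.99 to 0.16.

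Cnot8, the paralog that occupies the same place in the complex (ENSMUSG00000020515, chr11:58104153-58118594), had the opposite sign. Its levels were 1718, 2588 and 1664 normalized counts for Ctl 1, 2 and 3, and 3120.1, 3947 and 2093 in Dep 1, 2 and 3. Dep 1 and Dep 2 lay above all Ctl embryos, and Dep 3 lay between Ctl 1 and Ctl 2. The mean was 1990.1 ± 519 and 3054 ± 929 (n = 3 each), or 1.53-fold higher in Dep. The log2 fold was 0.60 ± 0.32 (SE), with a 95% interval from -0.10 to 1.30. Cnot8 stood highest of the 6 members in the order of all genes by p, where 3.99% had a smaller one. With the replicate number as a block, Cnot8 alone of the members passed the unadjusted threshold, as did 3.46% of all genes, and its adjusted p was 0.941 (limma).

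Set against each other within an embryo, the paralogs gave ratios that did not overlap between the groups. Cnot7 counts were 2.07, 1.22 and 1.62 times those of Cnot8 in Ctl 1, 2 and 3 and 0.867, 0.605 and 0.939 times across Dep 1, 2 and 3. Cnot7 thus gave more reads than Cnot8 in every Ctl embryo and fewer in every Dep embryo. The mean log2 ratio was 0.68 ± 0.38 in Ctl and -0.34 ± 0.34 for Dep embryos (n = 3 each), a difference of -1.02, or 2.02-fold. A two-sided exact permutation test gave p = 0.1, the smallest that 3 against 3 embryos can give. Adjusted by Benjamini-Hochberg over the 3 ratios described, the exact permutation p was 0.3 for this pair, 0.3 for Lin28a to Lin28b and 0.5 for Pan3 to Pan2. With an embryo left out the difference ran from -1.21 to -0.83. The 3 same-numbered pairs differed by -1.26, -1.01 and -0.78. Groups that do not overlap fix the sign of all these differences, so their shared sign adds no evidence.

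The sum of both paralogs overlapped between the groups. It was 5128 ± 707 normalized counts for Ctl embryos and 5407 ± 1195 for Dep embryos (n = 3 each, exact two-sided permutation p = 0.7). Cnot7 made up 67.5%, 54.9% and 61.8% of it in Ctl 1, 2 and 3 and 46.4%, 37.7% and 48.4% across Dep 1, 2 and 3. A ratio within an embryo is free of the library's scaling, and does not say which of the genes differs. The transcripts of Cnot7 and Cnot8 shared 0 stretches of 50 bases. Of those in Cnot8, 7.82% occurred in Gm18860, so the division of Cnot8 reads with that gene is uncertain. Cnot7 overlaps Zdhhc2 on the opposite strand over 247 of 5821 exonic bases, and reads there cannot be assigned without strand.

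**Figure D3:**
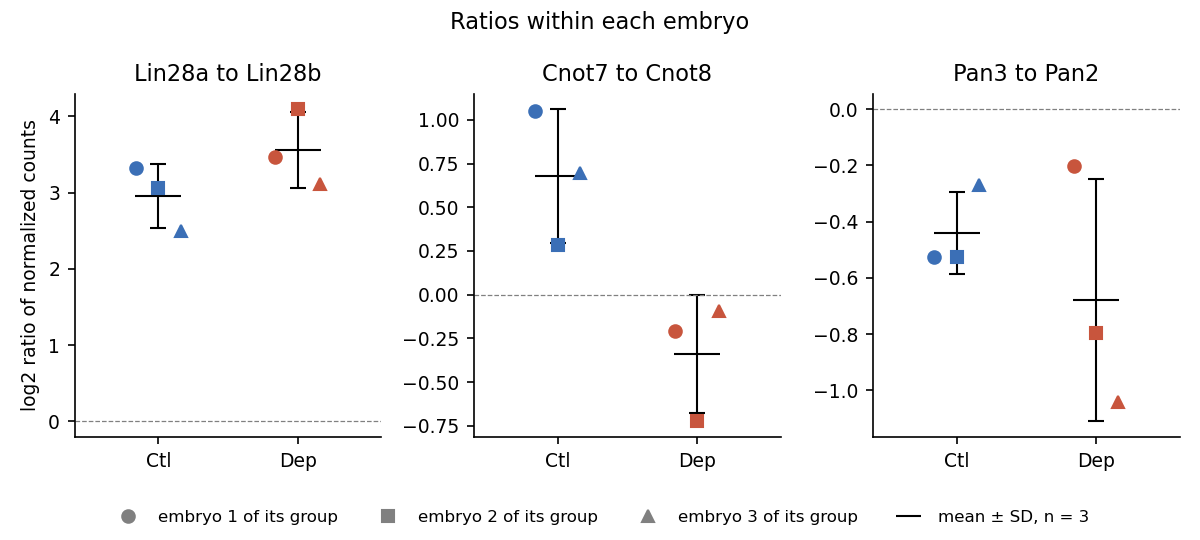
Log2 ratio of normalized counts within each embryo (vertical axes, each on its own scale) for Lin28a to Lin28b, Cnot7 to Cnot8 and Pan3 to Pan2, with the mean and SD of 3 embryos. For Cnot7 to Cnot8 the Ctl embryos lie above the dashed line of equal counts and the Dep embryos below it, while the groups overlap for the other pairs.

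Pan3, the subunit that carries the PAN2 nuclease to poly(A)-bound mRNA (ENSMUSG00000029647, chr5:147430161-147548502), had 658, 584 and 693 normalized counts across Ctl 1, 2 and 3. It had 391, 335 and 699 in Dep 1, 2 and 3. Dep 1 and Dep 2 lay below the Ctl embryos, and Dep 3 lay above all of them. The mean was 645 ± 55.8 and 475 ± 196 (n = 3 each), and the log2 fold -0.51 ± 0.37 (SE), with a 95% interval from -1.33 to 0.31. It was -0.30 without Dep 2 and -0.83 without Dep 3. The Ctl embryos lay close together, with a coefficient of variation of 8.65%, against 41.3% in Dep.

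Pan2, the nuclease itself, also had its highest level in Dep 3. It had 947, 842 and 836 normalized counts across Ctl 1, 2 and 3, and 450.4, 582 and 1438 across Dep 1, 2 and 3. The ratio of Pan3 to Pan2 was 0.695, 0.693 and 0.829 for Ctl embryos and 0.868, 0.575 and 0.486 for Dep embryos. Its mean log2 value was -0.44 ± 0.15 and -0.68 ± 0.43 (n = 3 each, exact two-sided permutation p = 0.5). The difference of -0.24 was -0.48 without Dep 1 and -0.06 without Dep 3. Both subunits were thus lowest in Dep 1 and Dep 2 and highest in Dep 3, Pan2 more so.

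Levels per length put the members in order within a group. In normalized counts per kilobase of merged exons, Ctl had 755 ± 197 for Cnot8, 539 ± 75.0 for Cnot7, 202 ± 38.5 for Lin28a, 43.1 ± 3.73 for Pan3, 12.2 ± 5.88 for Lin28b and 8.44 ± 4.46 for Dis3l2. The same measure in Dep put Dis3l2, at 8.91 ± 8.06, before Lin28b, at 6.51 ± 4.69. Lin28b and Dis3l2 lay within each other's spread in both groups on merged exons. By the longest coding transcript, Dis3l2 came before Lin28b in both groups. Dis3l2 had 23.8 ± 12.6 per kilobase against 20.4 ± 9.87 in Ctl, and 25.1 ± 22.8 against 10.9 ± 7.87 in Dep. Lin28a and Pan3 lay apart from their neighbours in Ctl by more than the SDs. On the length of the longest coding transcript Cnot7 came first in Ctl, at 1052 ± 146 per kilobase against 948 ± 247 for Cnot8. In Dep, Cnot8 came first on either length, at 1158 ± 352 against 404 ± 63.8 per kilobase of merged exons and at 1455 ± 443 against 789 ± 125 on the longest transcript.

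All 11 further subunits of CCR4-NOT and PAN were measured, with 6 higher and 5 lower for Dep, a median log2 fold of 0.05, a range from -0.38 to 0.26 and 0 past the threshold. Cnot1, the scaffold on which the complex is built, had 2928 ± 540 normalized counts for Ctl embryos and 3093 ± 299 for Dep embryos (n = 3 each). Cnot6 and Cnot6l, the other nuclease pair of the complex, had log2 folds of -0.13 and -0.38, and Cnot4, a ubiquitin ligase subunit, -0.34. Cnot10 had 1013, 1015 and 1014 for Ctl embryos and 1203, 1396 and 1077 for Dep embryos. It was 1 of the 11 whose groups did not overlap, or 9.09% beside the 6.90% of all genes.

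Among other poly(A) nucleases 6 of 7 had lower and 1 a higher level in Dep, 0 past the threshold. The median log2 fold was -0.13, and without Dep 1 it was 0.03 against 0.02 over all genes. Parn, which acts on short tails of noncoding RNA and of mRNA, had 1139 ± 204 and 1109 ± 127. Angel1 had 173, 195 and 211 for Ctl embryos and 35.2, 103 and 232 for Dep embryos, lowest in Dep 1. Pnldc1, a PARN relative that trims piRNAs, and Toe1, which matures snRNA ends, had log2 folds of -0.44 and 0.18.

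Proteins that bring deadenylases to their mRNAs were measured for 18 of 24 listed genes, 4 higher and 14 lower for Dep, with a median log2 fold of -0.22. Tob2, which links CCR4-NOT to the poly(A)-binding protein, had 33.1, 36.7 and 60.0 normalized counts for Ctl embryos and 4.86, 14.9 and 24.4 for Dep embryos. It was 1 of 18 without overlap, or 5.56% beside the 6.90% of all genes, and its log2 fold was -1.68 ± 1.16 (SE). Its relative Tob1 had 246 ± 51.3 and 338 ± 303. Rc3h1, which recruits CCR4-NOT to stem-loops, had 631, 625 and 684 for Ctl embryos and 134, 524 and 707 for Dep embryos, and Nanos1, a translational repressor, was at 0 in Dep 1. Without Dep 1 the median of the list was -0.07, against 0.02 over all genes. Btg4, the adaptor of maternal mRNA clearance, was among the listed genes that were not measured, so whether it had few reads or none cannot be told.

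Genes of poly(A) binding and tail synthesis had lower levels for Dep in 10 of 12 measured members, with a median log2 fold of -0.23. Without Dep 1 it was -0.08, against 0.02 over all genes. Pabpc1, the main cytoplasmic poly(A)-binding protein, had 16497 ± 2676 and 14004 ± 4807. Tent4a, a poly(A) polymerase that mixes other bases into tails, had 155, 278 and 549 for Ctl embryos and 101, 197 and 198 for Dep embryos. Tent5c, another poly(A) polymerase, had 4.86 in Dep 1 against 207 to 298 in the other embryos, and Papolg, a nuclear poly(A) polymerase, had a log2 fold of 0.46.

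Decapping and 5′ decay follow tail removal, and 7 of the 18 measured genes were higher and 11 lower, with a median log2 fold of -0.02. Without Dep 1 it was -0.19, against 0.02 over all genes. Edc4, a scaffold of the decapping complex, had 664 ± 157 and 951 ± 296, Eif4enif1, which links CCR4-NOT to translational repression, 732 ± 173 and 988 ± 247, and the decapping enzyme Dcp2 659 ± 149 and 532 ± 171 (n = 3 each). No gene of these lists passed the test (limma, lowest adjusted p = 0.9997).

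**Figure D4:**
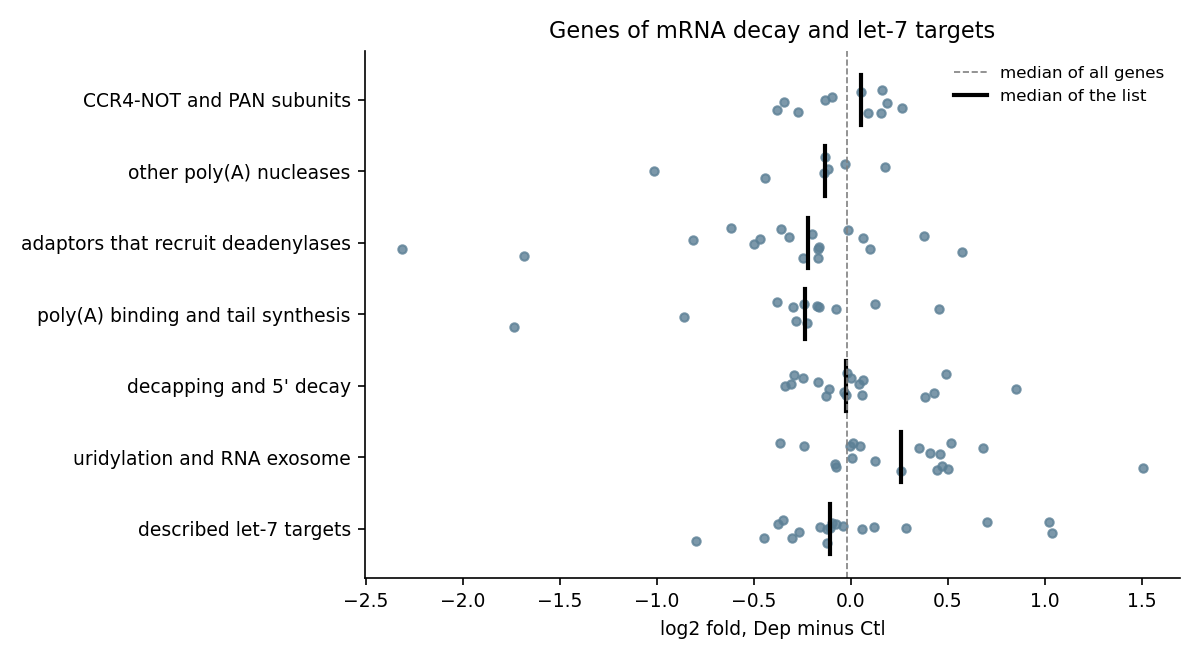
Log2 fold of Dep against Ctl (horizontal axis) for each measured gene of 7 lists, with the median of each list as a thick bar and that of all genes, -0.02, as a dashed line. The medians run from -0.23 for poly(A) binding and tail synthesis to 0.26 for uridylation and the RNA exosome, and points lie on both sides of 0 in every list.

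Genes with the most similar pattern were sought among those with a mean of at least 100 normalized counts, by Pearson's r of log2 levels across the 6 embryos. Each member was set against at least 9612 genes over only 6 libraries, which all genes share with their scaling and the low reads of Dep 1, so these are descriptions. Closest to Lin28a were Tmco4, Gtf3c1 and Trrap (r = 0.995, 0.993 and 0.992), and to Lin28b Bmpr2, Rbbp5 and Spen (r = 0.9904, 0.989 and 0.985). Closest to Dis3l2 were 9430015G10Rik, Lrsam1 and Nagpa (0.996, 0.995 and 0.995), each at its lowest in Dep 1 as well. Closest to Cnot7 were Tpgs1, Fuca2 and Memo1 (0.998, 0.989 and 0.984), and to Cnot8 Ovol1, Yif1b and Mrpl4 (0.996, 0.991 and 0.988). Closest to Pan3 were Topbp1, Arid4b and Ccni (0.994, 0.993 and 0.993), and Topbp1 shares 40 of the 15306 distinct 50-base stretches of Pan3 transcripts.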

How the data were processed

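The table deposited by the authors gives 1 signal value per gene and library for 12149 genes, by its values a read count divided by a size factor. Per the file headers it also gives a log2 fold change, a score (the test statistic) and p-values, with the names used by DESeq2. HISAT2, Cufflinks 2.2.1 and mm10 stand in the submitters' processing notes without their roles, and the counting program is not given in the sources used here. Each embryo's RNA was copied into cDNA with SMART-Seq v4, per the labels' protocols, a kit that does not mark strand. No molecular identifiers are described.

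Divided by the step between low values, 100% of the values in every library were whole reads to within 0.01. Symbols, positions and lengths came from GENCODE M21 (GRCm38), which matched 11829 identifiers. The test was limma 3.58.1 with a mean-variance trend on log2(normalized count + 1) over all genes, with Benjamini-Hochberg adjustment at 0.05. The added 1 shrinks the log2 folds of low genes, as for Dis3l2, at -1.34 with 0.1 added and -1.10 with 1. An embryo near 0 can still dominate such a fold, which was 0.08 for Dis3l2 by edgeR. edgeR 4.0.16 and DESeq2 1.42.0 on whole reads, 2 other pseudocounts, a minimum mean of 100, quantile normalization, TMM scaling, library weights, no trend, a replicate block and each embryo left out were alternatives (R 4.3.3, Python 3.11.15). The fit was also run on simulated counts with known changes. No library like Dep 1 was simulated, so that run does not show how Dep 1 affects the fit. Ratios were compared by exact permutation.

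Members and lists were chosen with earlier results of these data known. The genes named are the members, a fixed set of pathway genes, the 3 of smallest p in each list, and 3 of most similar pattern per member. Arid3a, Tob2, Cnot10 and Dis3l were also picked out as genes whose groups did not overlap, and Exosc10 was added after its values were seen. The libraries differ from each other far beyond sampling noise (lowest chi-square per degree of freedom 86.7). Deviations from the group means of same-numbered embryos correlated across genes with r = 0.133, 0.151 and 0.129, each over 0.1. Differently numbered embryos had r from -0.158 to 0.0445. Deviations from a mean of 3 embryos sum to 0, so these values depend on each other, and they were not tested. The labels state no pairing, the tests were unpaired, and the block was an alternative.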

Additional observations from a re-analysis of the deposited data

How the results depend on the processing

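No member passed an adjusted p of 0.05 in any setting run. Among all genes 0 did, except with DESeq2 on whole reads, which called 1, Ly6a, a gene outside the lists and named after its value was seen. At an unadjusted 0.05, limma had 225 genes, edgeR 211, DESeq2 279, limma with library weights 399, and 122 to 576 with an embryo left out. With the replicate number as a block limma had 420, Cnot8 joined them at the same log2 fold of 0.60, and the Cnot7 to Cnot8 difference was -1.02. The block changed no other member's call. Dis3l2 turned to 0.073 after quantile normalization, 0.084 by edgeR and 0.079 by DESeq2. With embryos left out in turn its log2 fold ran from -2.20 to 0.81 and that of Lin28a from -0.72 to 0.000293, both highest without Dep 1. The number of members whose groups did not overlap was 1 after quantile normalization (Cnot7, beside 6.95% of all genes) and 0 to 3 with an embryo left out, where 12.9% to 20.9% of all genes then had no overlap; the 3, without Dep 3, were Lin28b, Cnot8 and Pan3. The median of the CCR4-NOT and PAN subunits ran from -0.11 to 0.073 and that of the uridylation and exosome genes from 0.14 to 0.35 with an embryo left out. The cause was not tested. A minimum mean of 100 left Lin28b and Dis3l2 untested. Low read numbers limit Lin28b and Dis3l2 among the members. Intervals on reads cover counting error only.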

Other observations

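Genes whose 3′ UTR holds the let-7 match CTACCTCA were described as a set after the member values were known, so the set was given no test. The set had 397 genes, of which 163, or 41.1%, had the higher level among Dep embryos. Their median log2 fold was -0.08. The 10699 genes with a UTR but no match had 48.6% higher and a median of -0.01. Groups did not overlap in 8.56% of the set and 6.73% of the others. The UTRs differed in length, with a median of 2562 bases in the set and 1078 in the others, and the part of length in the values was not tested. Without Dep 1 the median was 0.02 for the set and 0.02 for all genes. With the other embryos left out in turn it ran from -0.13 to -0.06 for the set and from -0.035 to -0.0067 for all genes. With the shorter match CTACCTC, in 1158 genes, the median was -0.06.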
